A study of Mus musculus with 145 samples.

Results

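The 36 genes described here are long genes that act mostly in neurons, as adhesion molecules, receptors and synaptic proteins, together with genes of common fragile sites such as Fhit, Wwox and Macrod2. They were chosen by name, and each was matched by its Entrez gene identifier to a gene region of the authors' table, so that 36 of 13391 gene regions were followed. Their regions measured 193 to 2392 kb, with a median of 1074 kb, and 19 of them were at least 1000 kb long, against a median of 35.5 kb over all gene regions. Genomic DNA came from 94 untreated tumours of 23 mice and 51 tumours of 25 mice that had grown under BYL719, an inhibitor of the PI3K alpha kinase. All mice, untreated ones included, carried WAP-Cre, a Cre gene that the milk protein promoter WAP turns on in the mammary gland late in pregnancy. They also carried LSL-PB, a piggyBac transposase, and LSL-PIK3CA(H1047R), a mutant kinase gene, which both wait for Cre, and ATP1, the transposon that the transposase moves. The drug was given daily at 30 mg/kg from a tumour volume of 250 mm3, and a tumour was called resistant after growth in at least 3 consecutive measurements over 3 weeks. The screen asked which genes carry transposon insertions in tumours that grow with or without the drug. The mice were told apart by the numbers in the library titles, which distinguish 48, whereas the labels' protocol gives 53. Tumours of 1 mouse are not independent, and nothing in the sources used here says which tumours shared cells. By its title, untreated library 88 repeats untreated 58 with the suffix R2, so that the 94 libraries may stand for 93 tumours. It shared 9 of its 85 listed positions with that library and held 0 hits.

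Common fragile sites are stretches of the genome that break when DNA replication is slowed, and many of them lie in very long genes that replicate late. Many of the longest mouse and human genes are expressed in neurons and encode cell adhesion proteins that join synapses or guide axons. A piggyBac transposon inserts at the sequence TTAA and is cut out and reinserted by its transposase, often near the place it left. A long gene offers more TTAA sequences than a short gene, and the number of insertions in it was therefore set against its length. The TTAA sequences of each region were not counted, so that differences in their density between regions are not corrected for.

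A hit was a transposon position and strand with at least 10 reads in a tumour, and where several tumours listed the same position, the tumour with the highest read number alone was counted. Total reads per tumour ran from 2950 to 938987 in the untreated group (median 48339) and from 51 to 1604365 in the resistant group (median 136932). The untreated tumours held 0 to 3012 hits (median 431), and the resistant tumours 0 to 3319 (median 473). Chromosome 10, treated here as the chromosome of the transposon donor, held 23.2% of untreated and 17.2% of resistant hits. Outside it the genome mean was 19.6 hits per Mb over the untreated tumours and 12.3 hits per Mb over the resistant tumours, which is 0.208 and 0.242 hits per Mb for each tumour. The library titles were spelled in 4 ways, each used in 1 group, and the spellings moved with the number of hits: the median was 729 hits in the 61 untreated TgTum tumours, 257 in the 33 untreated tgTum tumours, 637 in the 35 resistant Tgtumor tumours and 240.5 in the 16 resistant Mouse tumours.

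The 5 member sites that follow are shown because each was the most-read site of a tumour or was listed in more than 20 libraries. Each is printed with the 8 bases that the deposited table gives around the insertion (mm10), and the capitals mark the TTAA target.
Ntm, chromosome 9, position 29299146, minus strand: TTAActgc
Opcml, chromosome 9, position 27896188, plus strand: TTAActgg
Lrp1b, chromosome 2, position 41943664, plus strand: TTAAatat
Mdga2, chromosome 12, position 66796403, plus strand: TTAAgagg
Macrod2, chromosome 2, position 140616815, minus strand: TTAAggga
All 5 begin with the TTAA target and differ in the 4 bases after it. Of the hits in member genes, 96.6% lay at TTAA in the untreated tumours and 96.8% in the resistant tumours, against 96.3% of all hits in each group. In the 4 bases after TTAA, A or T made up 66.1% of bases at untreated member hits and 64.7% at resistant member hits, against 62.8% and 62.5% at hits elsewhere.

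As a set, the member genes were hit about as densely as the genome. The 35 members outside chromosome 10 covered 41.4 Mb and held 847 hits in the untreated and 569 hits in the resistant tumours. This was 1.05 and 1.11 times the genome mean, below the pooled 1.33 and 1.39 times of all gene regions outside chromosome 10. For gene regions of at least 500 kb the pooled values were 1.08 and 1.12 times. The median over the members was 1.06 times the genome mean in untreated and 0.910 times in resistant tumours, against 1.01 in both groups for all gene regions of at least 500 kb. For gene regions of at least 1000 kb the medians were 0.994 and 0.910 times. In the untreated tumours, 16 of 35 members lay below the genome mean, beside 46.5% of all gene regions outside chromosome 10. In the resistant tumours 19 of 35 did, beside 56%. Of the gene regions of at least 500 kb, 48.6% lay below it in untreated and 48.1% in resistant tumours. The resistant pooled value of the members rested on resistant tumour 27, described below with Cdh12, and was 0.936 times the genome mean without it. The resistant values given here for other gene regions include that tumour. Among 46 other long neural, adhesion and fragile-site genes, of which 44 lay outside chromosome 10, the pooled values of those 44 were 1.11 and 1.12 times the genome mean.

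**Figure D1:**
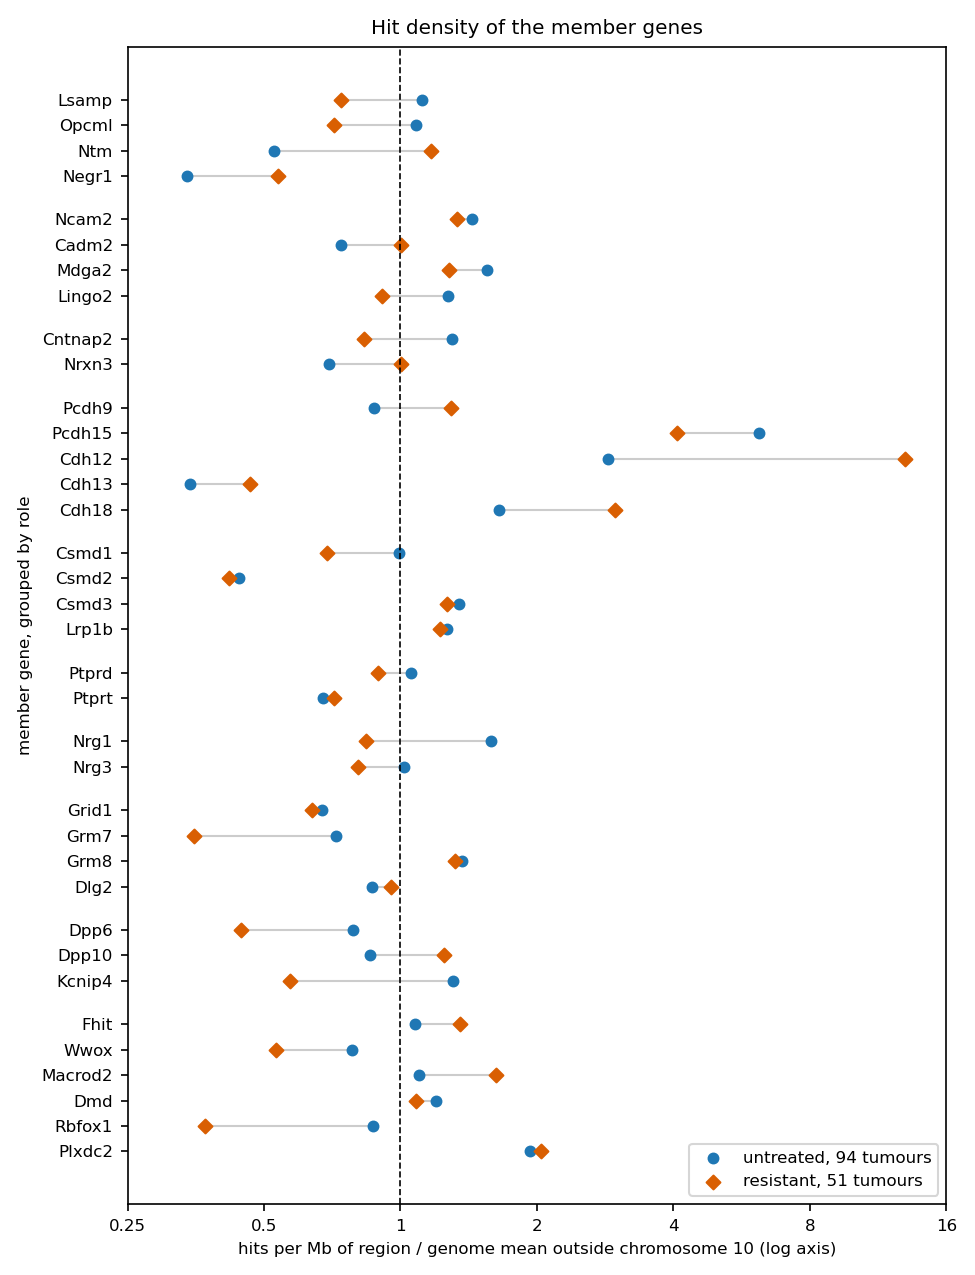
Hits per Mb of each member gene divided by the genome mean outside chromosome 10, on a log axis, with 1 circle for the untreated and 1 diamond for the resistant tumours and the members grouped by role. Most members sit around the dashed line at 1, whereas Pcdh15 lies at 6.19 and 4.07 and Cdh12 at 2.87 and 13.

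The IgLON genes Lsamp, Opcml, Ntm and Negr1 encode immunoglobulin-domain proteins held on the neuronal surface by a lipid anchor, and together they were hit below the genome mean, at 0.880 times in untreated and 0.785 times in resistant tumours. Lsamp (chromosome 16, 39982371 to 42176292) held 0 to 4 hits per untreated tumour and 0 to 3 per resistant tumour, with a median of 0 in both groups. It was hit in 34 of 94 untreated and 13 of 51 resistant tumours, so that most tumours of either group carried none. Opcml was hit in 20 untreated and 7 resistant tumours, at 1.08 and 0.714 times the genome mean. Ntm, its neighbour on chromosome 9, was hit in 9 tumours of each group, at 0.527 and 1.17 times. In resistant tumour 38, 5 Ntm hits were found where 0.181 was expected from length, and the Ntm site printed above, with 37571 reads, was the most-read site of that tumour and took 12% of its reads. Negr1 (chromosome 3, 156559794 to 157316464) was the most sparsely hit member in the untreated tumours, with 5 hits in 4 of 94 tumours, 0.338 times the genome mean. In the resistant tumours Negr1 had 5 hits in 5 tumours, 0.536 times.

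The other adhesion genes with immunoglobulin or leucine-rich domains reached 1.20 times the genome mean in untreated and 1.07 times in resistant tumours. Mdga2, a lipid-anchored protein that binds neuroligins, was hit in 21 untreated and 10 resistant tumours, at 1.55 and 1.28 times. Its site printed above was the most-read site of untreated tumour 82, with 1380 reads, 5.63% of that library. Ncam2, an olfactory neuron adhesion molecule, was hit in 12 and 6 tumours, at 1.44 and 1.33 times. Lingo2, a leucine-rich transmembrane protein, was hit in 21 and 10 tumours, and Cadm2, a synaptic cell adhesion molecule, in 12 and 11. The neurexin family gene Cntnap2, whose product clusters potassium channels on axons, was hit in 34 untreated and 15 resistant tumours, at 1.30 and 0.831 times the genome mean. Nrxn3, a presynaptic receptor for neuroligins, was hit in 17 and 11 tumours, at 0.697 and 1.0 times.

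Among the cadherins, calcium-dependent adhesion proteins, the values were spread widely. Pcdh15, a protocadherin of the hair cell tip link, lies on chromosome 10 (73097342 to 74649732) and was hit in 64 of 94 untreated and 34 of 51 resistant tumours, more than any other member in either group. An untreated tumour held up to 11 hits in it and a resistant tumour up to 8. Its 188 and 78 hits came to 6.19 and 4.07 times the mean of the other chromosomes, but to 1.07 and 1.03 times the mean of chromosome 10 itself. Cdh13, a cadherin without a transmembrane domain, was hit in 7 untreated and 6 resistant tumours, never by more than 1 hit per tumour, at 0.343 and 0.467 times the genome mean. Its region covers 87.9% of the RefSeq gene. Pcdh9 was hit in 14 and 12 tumours, at 0.872 and 1.29 times.

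The type II cadherins Cdh12 and Cdh18 lie near each other on chromosome 15, and their resistant values came mainly from resistant tumour 27. Cdh12 (21109452 to 21589533) held 27 hits in 14 untreated tumours, 0 to 8 per tumour, and 77 hits in 5 resistant tumours, of which 73 were in resistant tumour 27 and 1 in each of the others. Cdh18 had 30 hits in 19 untreated tumours and 34 in 14 resistant tumours, 21 of them in the same tumour. Csmd3, on the same chromosome, had 19 resistant hits, 9 of them there. Region length predicted 0.417, 0.805 and 1.05 hits in that tumour for Cdh12, Cdh18 and Csmd3. Without it, the resistant densities of these 3 genes changed from 13 to 0.726, from 2.97 to 1.22 and from 1.27 to 0.718 times the genome mean.

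Resistant tumour 27 had 723 of its 2456 hits on chromosome 15, or 29.4%, where the median of the 127 tumours with at least 100 hits was 4.07% and the next highest was 9.60%. Its most-read site of all, with 18513 reads and 14.8% of the library, lay on the plus strand at position 20901859 of that chromosome, 208 kb before the Cdh12 region of the authors' table but inside the longer Cdh12 span of RefSeq, of which the table's region covers 41.8%. The site read TTAAatac. Within 20 Mb, hits thinned out with distance from it, from 242 per Mb within 0.25 Mb to 22 per Mb at 1 to 2 Mb and 2.75 per Mb at 10 to 20 Mb. Beyond 20 Mb there were 270 hits, 4.22 per Mb, and they were dense again in places. There were 42 between 71 and 72 Mb from that site and 28 between 40 and 41 Mb, where a site had 4787 reads. The RefSeq span of Cdh12 held 195 hits of this tumour, against 73 in the region of the authors' table. Those 73 hits lay 38 along the gene and 35 against it, 71 of them at TTAA, with 10 to 1354 reads and a median of 27. The other tumours of the same mouse, resistant 28 and 29, held 12 of 143 and 20 of 329 hits on chromosome 15 and 0 in the Cdh12 region. Untreated tumour 18 was the next highest, with 135 of 1406 hits on chromosome 15, 8 in the Cdh12 region and 13 in its RefSeq span. Its most-read site on that chromosome, with 2664 reads, lay at position 21684133, 94.6 kb beyond the Cdh12 region, with 44 hits per Mb within 0.25 Mb of it and 1 per Mb at 10 to 20 Mb.

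**Figure D2:**
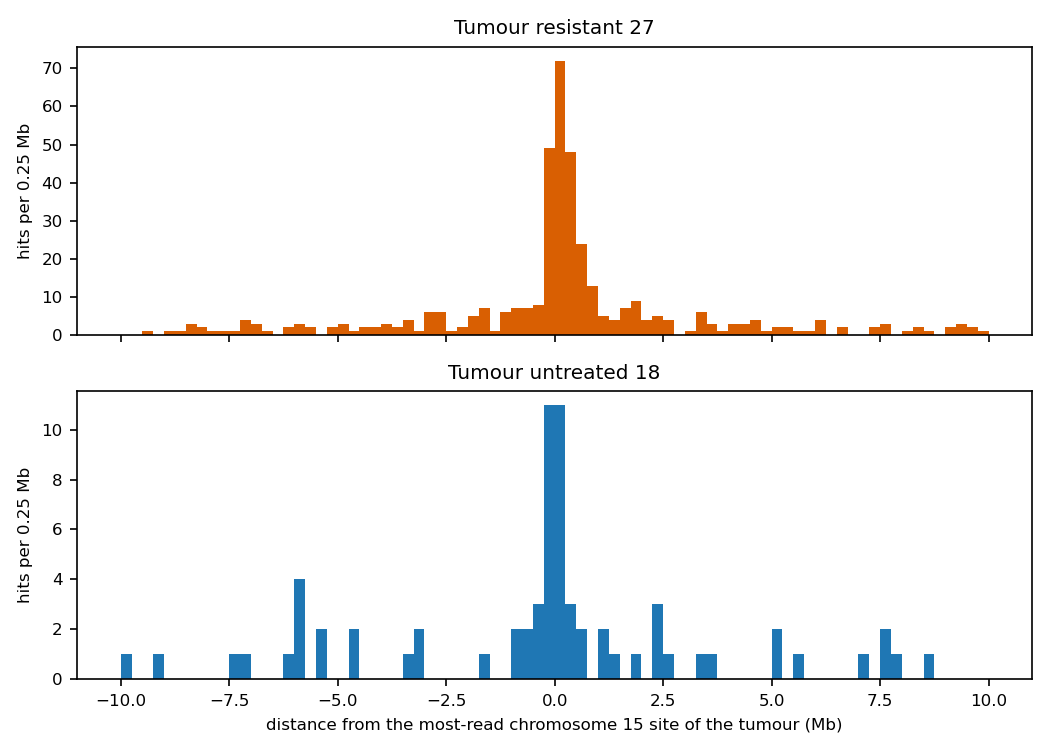
Number of hits on chromosome 15 in windows of 0.25 Mb, within 10 Mb of the most-read site of that chromosome, by distance from it in Mb, for resistant tumour 27 (top) and untreated tumour 18 (bottom). In both, hits are densest next to that site, at 242 and 44 per Mb within 0.25 Mb.

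The CUB and sushi domain genes Csmd1, Csmd2 and Csmd3 encode large membrane proteins related to complement regulators, and Lrp1b encodes a giant LDL receptor family member that is often deleted in tumours. These 4 genes were hit at 1.12 times the genome mean in untreated and 0.988 times in resistant tumours. Lrp1b (chromosome 2, 40596773 to 42655598) was hit in 29 of 94 untreated and 21 of 51 resistant tumours, at 1.27 and 1.22 times. Csmd1 was hit in 24 and 12 tumours, Csmd3 in 21 and 9, and Csmd2 in 5 and 3, with Csmd2 at 0.439 and 0.418 times the genome mean. The receptor tyrosine phosphatases Ptprd and Ptprt, which act in synapse adhesion, were hit in 32 and 11 untreated and 18 and 7 resistant tumours. Ptprd lay near the genome mean, at 1.06 and 0.892 times, and Ptprt below it, at 0.675 and 0.714 times.

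The neuregulins are ligands of ERBB receptors. Nrg1 was hit in 6 untreated and 2 resistant tumours, but its region of 193 kb covers 17.8% of the RefSeq gene. Nrg3 was hit in 17 and 9 tumours, at 1.02 and 0.806 times the genome mean. The glutamate receptor genes Grid1, Grm7 and Grm8 and the postsynaptic scaffold gene Dlg2 together lay at 0.902 and 0.829 times. Grm8 was hit in 18 untreated and 10 resistant tumours, Grid1 in 10 and 6, Dlg2 in 18 and 13 and Grm7 in 11 and 4, the Dlg2 region covering 69% of the RefSeq gene. Grm7 had the lowest resistant density of the members, at 0.351 times the genome mean. The potassium channel partners Dpp6, Dpp10 and Kcnip4 were hit in 11, 11 and 22 untreated and in 5, 9 and 8 resistant tumours, the Dpp10 region covering 47.3% of the RefSeq gene. Kcnip4 lay at 1.30 times the genome mean in untreated and 0.570 times in resistant tumours.

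Of the fragile-site and remaining long genes, Fhit, which encodes a dinucleotide hydrolase, and Macrod2, which encodes an ADP-ribose hydrolase, were hit, with Lrp1b, in the largest percentages of resistant tumours after Pcdh15. Macrod2 (chromosome 2, 140393430 to 142390050) was hit in 28 of 94 untreated tumours, 0 to 6 hits per tumour, and in 22 of 51 resistant tumours, 0 to 4 per tumour, with a median of 0 in both. Its density was 1.10 and 1.62 times the genome mean. The Macrod2 site printed above, with 1199 reads, was the most-read site of untreated tumour 29. Fhit (chromosome 14, 9550094 to 11164032) was hit in 27 untreated tumours, 0 to 3 hits per tumour, and in 21 resistant tumours, 0 to 2 per tumour, at 1.08 and 1.36 times. Wwox, an oxidoreductase gene of another fragile site, was hit in 13 and 5 tumours, at 0.782 and 0.531 times. Dmd, which encodes dystrophin and was the longest member, was hit in 32 and 19 tumours, at 1.20 and 1.08 times. Rbfox1, a neuronal splicing factor gene, was hit in 22 and 7 tumours, at 0.869 and 0.371 times. Plxdc2, a plexin-domain membrane protein gene, was hit in 13 and 9 tumours, at 1.93 and 2.04 times.

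The number of tumours hit was then set against the number that region length and each tumour's own number of hits predict. In a two-sided exact Poisson-binomial test, with p adjusted by Benjamini-Hochberg for the 12536 gene regions outside chromosome 10, 0 of 35 members passed in either group. Over all regions, 0.471% passed above and 0.0319% below expectation in untreated tumours, and 0.399% and 0.016% in resistant tumours. Over the 214 regions of at least 500 kb, 0.935% passed above and 1.87% below in untreated tumours, and 1.4% and 0.935% in resistant tumours. At an unadjusted p under 0.05 there were 4 members in each group, 2 above and 2 below expectation. At that level stood 5.78% of all regions above and 0.526% below in untreated tumours, and 4.2% and 0.247% in resistant tumours. Of the regions of at least 500 kb, 12.1% stood above and 8.88% below in untreated tumours, and 6.07% and 5.14% in resistant tumours. Negr1 was hit in 0.315 times the expected 12.7 untreated tumours (exact p = 0.00334, adjusted p = 0.209), Cdh13 in 0.421 times the expected 16.6 (exact p = 0.00373, adjusted p = 0.219) and Mdga2 in 1.65 times the expected 12.7 (exact p = 0.0170, adjusted p = 0.464). Fhit was hit in 1.51 times the expected 13.9 resistant tumours (exact p = 0.0198, adjusted p = 0.782), Rbfox1 in 0.524 times the expected 13.4 (exact p = 0.0251, adjusted p = 0.869) and Grm7 in 0.439 times the expected 9.11 (exact p = 0.0482). Plxdc2 was the only member among them in both groups, at 1.81 times the expected 7.16 untreated tumours (exact p = 0.0425, adjusted p = 0.737) and 2.03 times the expected 4.43 resistant tumours (exact p = 0.0466). Among the 44 other long genes outside chromosome 10, Robo1 passed in the untreated tumours, with 19 tumours hit where 6.95 were expected (2.73 times, exact test, adjusted p = 0.0147). It lay at 2.09 times the expected number in the resistant tumours (exact test, adjusted p = 1).

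**Figure D3:**
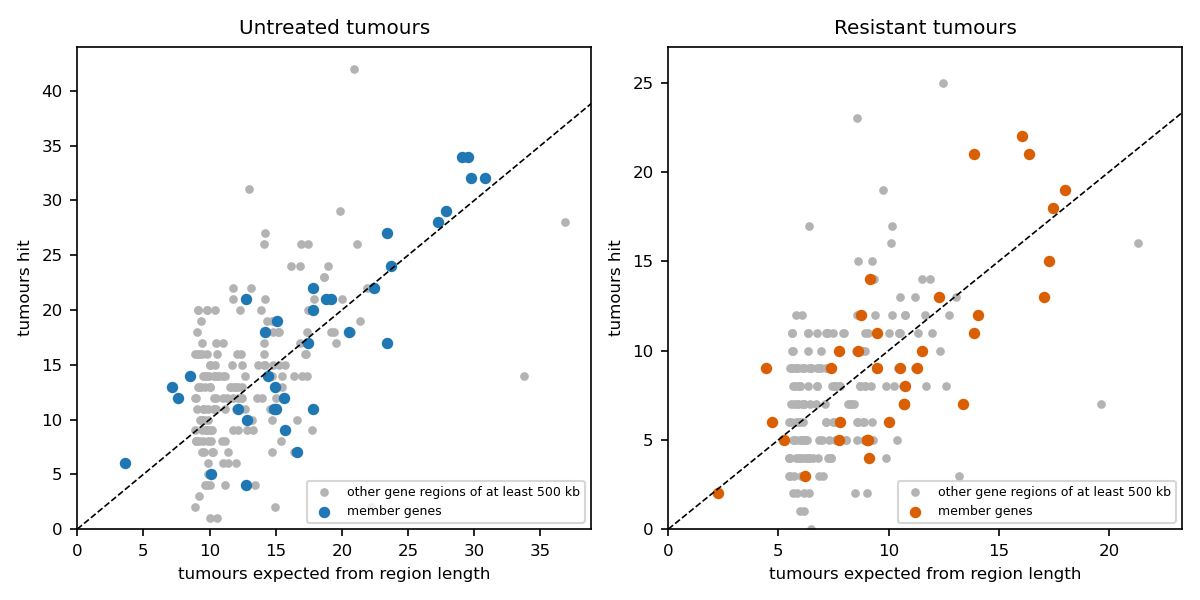
Tumours hit against tumours expected from region length, for the member genes outside chromosome 10 (coloured) and other gene regions of at least 500 kb (grey), in untreated (left) and resistant tumours (right), with the line of equality dashed. The members follow the line in both groups, with Negr1 at 4 and Cdh13 at 7 untreated tumours below it, where 12.7 and 16.6 were expected.

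The share of tumours hit did not differ between resistant and untreated tumours beyond the threshold for any member. In a two-sided Fisher's exact test, with p adjusted by Benjamini-Hochberg for the 2557 gene regions hit in at least 5 tumours, 0 of 36 members passed, beside 0.0% of all regions higher and 0.0% lower in resistant tumours. At an unadjusted p under 0.05 there were also 0 members, beside 2.35% of all regions higher and 0.626% lower. A permutation of the group labels over mice, 100000 times, likewise gave 0 members at an unadjusted p under 0.05, beside 148 of the 2557 regions tested. The share was lower in resistant tumours for 17 of 36 members, beside 46.9% of all regions tested. Differences ran from -10.7 percentage points for Lsamp to 13.4 for Macrod2, with a median of 0.511, against a median of 0.563 over all regions tested.

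Fhit had the smallest p, with 28.7% of untreated tumours hit (95% Clopper-Pearson interval 19.9 to 39%) and 41.2% of resistant tumours (27.6 to 55.8%; Fisher's exact p = 0.142, adjusted p = 1, permutation over mice p = 0.229). Macrod2 was hit in 29.8% of untreated (20.8 to 40.1%) and 43.1% of resistant tumours (29.3 to 57.8%; Fisher's exact p = 0.143, adjusted p = 1). Lsamp was hit in 36.2% (26.5 to 46.7%) and 25.5% (14.3 to 39.6%; Fisher's exact p = 0.200, adjusted p = 1). The intervals of the groups overlap in all 3 genes. Rbfox1, at 23.4% and 13.7% (Fisher's exact p = 0.196, adjusted p = 1), and Ntm, at 9.57% and 17.6% (Fisher's exact p = 0.190, adjusted p = 1), gave the other p-values up to 0.200. Of the other long genes, Cntnap4 had the smallest p, with 9 of 94 untreated and 0 of 51 resistant tumours hit (Fisher's exact p = 0.0269, adjusted p = 0.997), followed by Cdh4 with 7 and 0 (Fisher's exact p = 0.0522).

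**Figure D4:**
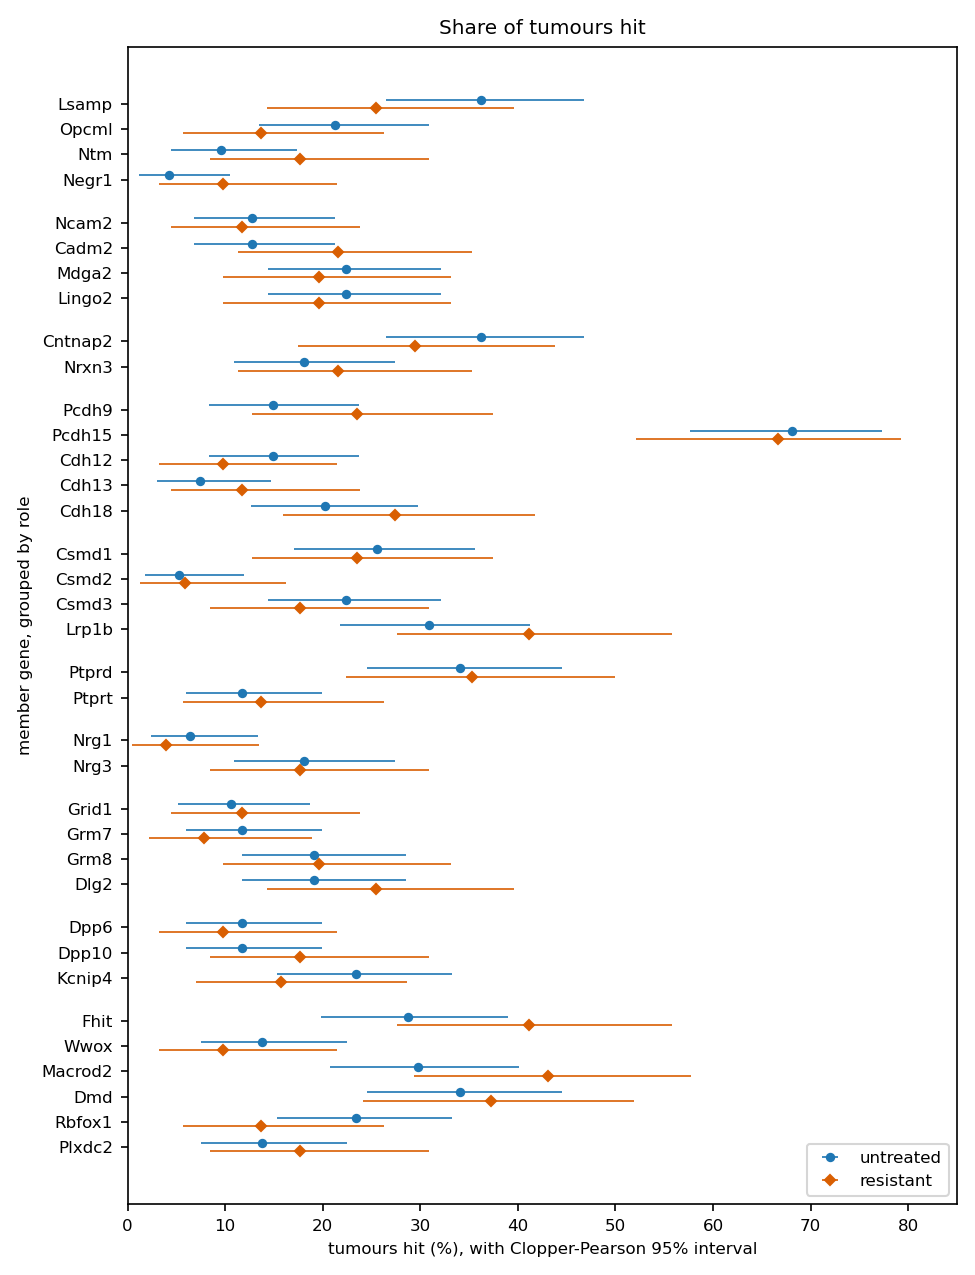
Percent of tumours hit in each member gene with its Clopper-Pearson 95% interval, untreated (circles, 94 tumours) and resistant (diamonds, 51 tumours). The intervals of the groups overlap for Macrod2, at 29.8% and 43.1%, and for Lsamp, at 36.2% and 25.5%, and Pcdh15 lies highest at 68.1% and 66.7%.

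Within the untreated group, the shares of Fhit, Macrod2 and Lsamp lay further apart between title spellings than between the treatment groups, with no test made. Fhit was hit in 41% of the untreated TgTum and 6.06% of the untreated tgTum tumours, and in 42.9% of the resistant Tgtumor and 37.5% of the resistant Mouse tumours. Macrod2 was hit in 42.6% and 6.06% of the untreated and 48.6% and 31.3% of the resistant tumours, in the same order. Lsamp was hit in 47.5% and 15.2% of the untreated and 37.1% of the Tgtumor tumours, and in 0 of 16 Mouse tumours. For that count of 0 the upper limit of the share is about 18.8%, an approximation that divides 3 by the number of tumours. Within each group, the spelling with fewer hits per tumour had the lower share in all 3 genes. Without the tgTum tumours the difference for Macrod2 was 0.514 percentage points, and without the Mouse tumours that for Lsamp was 0.973. Since each spelling was used in 1 group, spelling and treatment cannot be told apart.

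The orientation of the transposon relative to the gene was close to even. Over the members of known strand, 47.2% of hits had the orientation of the gene, against 49.7% over all gene regions of known strand. In a two-sided exact binomial test, adjusted over 1027 gene regions with at least 10 hits, 0 of 33 members tested passed, beside 0.292% of all regions. Cntnap2 had 29 hits along the gene and 51 against it (exact binomial p = 0.0183, adjusted p = 0.883), and all 6 hits of untreated tumour 2 were among the latter. Lrp1b had 31 and 51 (exact binomial p = 0.0352, adjusted p = 1). At an unadjusted p under 0.05 these were the only 2 members, beside 3.7% of all regions. No gene region differed in orientation between the groups at an adjusted p under 0.05 in Fisher's exact test, 0.0% of 1027.

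Hits were spread along the members. Counted from the start of the gene, the 5 equal parts of the region held 20.6, 21.7, 20.7, 18.3 and 18.6% of the untreated hits outside chromosome 10 and on genes of known strand. In the resistant tumours they held 22.3, 24.8, 19.6, 14.1 and 19.3%. Member hits had a median of 48 reads in untreated and 34 in resistant tumours, against 43 and 36 over all hits. Among the 10 most-read sites of a tumour were 16 of 1035 untreated member hits, 1.55% against 1.35% of all hits, and 5 of 647 resistant member hits, 0.773% against 0.824%. These included the sites of Ntm, Mdga2 and Macrod2 that ranked first, a Lsamp site that ranked second in untreated tumour 76 with 1225 reads, and a Cdh12 site with 10114 reads in untreated tumour 62.

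Most tumours carried hits in several members at once. Any member was hit in 84 of 94 untreated and 47 of 51 resistant tumours, with 0 to 25 members hit in each group and medians of 6 and 7. The number of members hit moved with the number of hits: tumours with at least 100 but fewer than 300 hits had a median of 2 members hit in the untreated and 3 in the resistant group, and tumours with at least 1000 hits had 15 and 19. Untreated tumour 3, with 3012 hits, and resistant tumour 32, with 2792, each had 25 members hit. In tumours with at least 100 hits outside chromosome 10, the members held 1.72% ± 0.735 (SD, n = 80) of untreated and 1.68% ± 0.903 (SD, n = 44) of resistant hits, and they cover 1.65% of that genome.

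**Figure D5:**
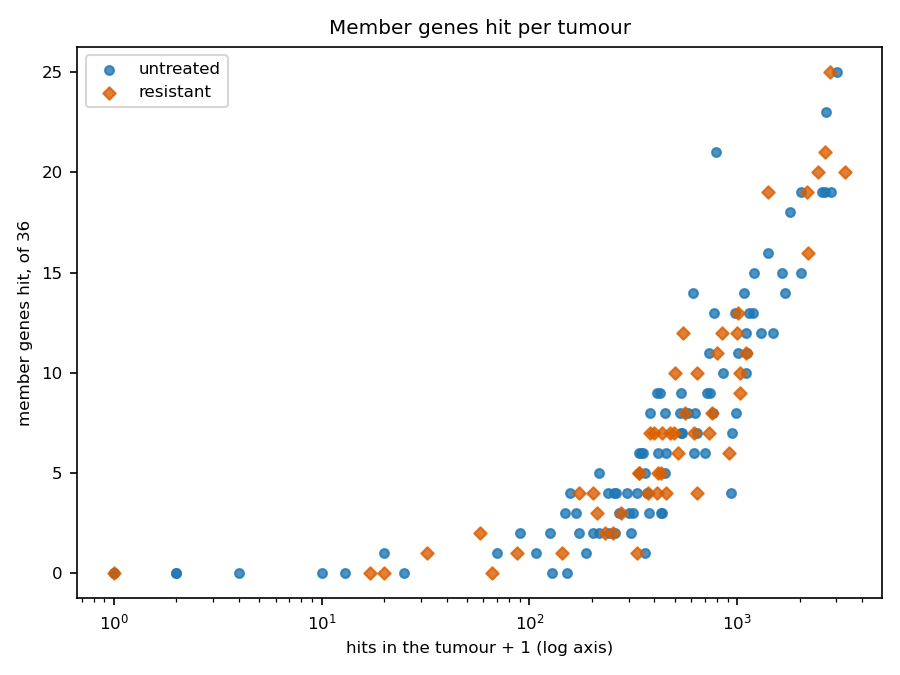
Number of the 36 member genes hit in each tumour against the number of hits in that tumour plus 1, on a log axis, for untreated (circles) and resistant tumours (diamonds). Tumours of both groups follow the same rise, up to 25 members in untreated tumour 3 and resistant tumour 32.

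The count of tumours depended on how positions listed in several libraries were treated. The Lrp1b site printed above was listed in 27 untreated libraries of 8 mice, all of the TgTum spelling, and 25 of these had at least 10 reads, at most 224. Where every such library was counted, Lrp1b was hit in 46 of 94 untreated tumours in place of 29. The Opcml site was listed in 26 resistant libraries of 17 mice, but only 2 had at least 10 reads, and resistant tumour 26 held 16728. The Ntm site was listed in 25 resistant libraries of 21 mice, of which 4 had at least 10 reads. In the authors' deposited table, Opcml and Ntm were each counted in 36 of 51 resistant tumours, 70.6%, against 29.8% and 20.2% of untreated tumours. Counting any read inside the region also gave 36 resistant tumours for each gene, and 30 untreated tumours for Opcml and 20 for Ntm, where the authors' deposited table has 28 and 19. Without the positions listed in at least 10 libraries there were 18 resistant tumours for Opcml and 20 for Ntm. With the read minimum and the most-read tumour rule, Opcml was hit in 13.7% and Ntm in 17.6% of resistant tumours. The authors' deposited table gave Cdh12 112 resistant insertions in 12 tumours with a score of 52.4, the signed −log10 p of their insertion site test. Of the 77 resistant Cdh12 hits counted here, 73 were those of resistant tumour 27. Most members had a negative score in the authors' deposited table. The lowest were -9.03 for Cadm2 in untreated and -5.66 for Rbfox1 in resistant tumours. Scores were positive for Cdh12, Cdh18, Pcdh15 and Plxdc2 in both groups and for Ntm in resistant tumours. Why these scores differ from the length test made here was not tested.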

How the data were processed

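Transposon insertions were mapped by splinkerette PCR of genomic DNA from 145 tumours. The deposited site table gave a position, strand, sequence context and, per library, a whole-number read count that the authors had not scaled, as far as the values show. The deposited gene table of the authors gave regions, insertion counts, percent of tumours and a signed −log10 p score per gene. Coordinates are mm10, per the submitters' processing notes; the aligner is not given in the sources used here. A further 725 per-sample columns were not used. Depth is total reads per library. Reads are PCR products without molecular identifiers, and the intervals cover counting error only. The p-values of the share and length tests took tumours as independent. Those of orientation and of hits inside against outside the gene took single hits as independent. They leave out that tumours of the same mouse, or hits of the same tumour, may depend on each other. The permutation over mice kept the tumours of a mouse together.

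Members and lists were chosen with earlier results of these data known. Genes were matched by identifier because the symbol column of the gene table is misaligned. Strand came from the promoter table of RefSeq (26 members) or from the end of the region that the authors extended (8 members), and 2 members had none. Hits needed at least 10 reads, each position and strand being kept in the tumour with most reads. This left 100932 of 105443 site and tumour pairs, and 12 positions tied for most reads went to the tumour first in accession order. The chance of a hit in a tumour was taken from region length over 2500.59 Mb outside chromosome 10. Benjamini-Hochberg adjustment ran over all regions tested, at a threshold of 0.05. All members are named, and of the other long genes those past the threshold or the 2 with the smallest p. Alternatives varied the read minimum, depth, shared positions, title spellings, mice, regions and background. Python 3.11.15, numpy 2.4.6, pandas 2.3.3, scipy 1.17.1 and matplotlib 3.10.9 were used, and the tests were tested on simulated data.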

Additional observations from a re-analysis of the deposited data

How the results depend on the processing

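The counts of members past a threshold changed in the share test and, in the length test, above in both groups and below in untreated tumours. In Fisher's exact test of hits inside against hits outside the gene, in place of tumours, 1 member differed between the groups, Cdh12 (adjusted p = 2.07e-11), and 0 did when resistant tumour 27 was also left out. With shared positions kept in every tumour, 1 member lay above the number expected from length in untreated tumours, Lrp1b (1.60 times, adjusted p = 0.0122). With the expectation from gene regions alone, 1 lay below, Cdh13 (0.343 times, adjusted p = 0.0447). With chromosome 10 kept, 1 lay above in each group, Pcdh15 (2.39 and 2.24 times, adjusted p = 6.85e-17 and 4.99e-07 in the exact test), and 2 lay below in untreated tumours, Cdh13 (0.353 times, adjusted p = 0.0110) and Negr1 (0.261 times, adjusted p = 0.0154). Keeping shared positions raised Lrp1b from 29 to 46 of 94 untreated tumours. Keeping chromosome 10 brought its hits and length into the expectation of every region. Pcdh15 lay at 1.07 and 1.03 times the mean of that chromosome itself. Apart from Cdh12, the cause of these changes was not tested. Hits per Mb gave no value for mice, gene regions alone or chromosome 10 kept. Pooled density ran from 1.04 to 1.18 times the genome mean in untreated and 0.933 to 1.31 in resistant tumours, and the median of the members from 1.0 to 1.11 and 0.460 to 0.956. The sign of the difference in tumours hit held for 5 members over all alternatives that gave a value, and changed for the other 31. The share was lower in resistant tumours for Nrg1, Grm7, Kcnip4 and Rbfox1 and higher for Macrod2. The alternative that counted mice does not compare like with like, since 23 untreated mice gave 94 tumours and 25 resistant mice gave 51. A mouse with more tumours can be hit more often. For Fhit the sign changed only there, to -21.6 percentage points, with 16 untreated and 12 resistant mice hit. Over all gene regions, 14 of 2633 passed the share test with shared positions kept, and 14 of 2557 passed for hits inside against outside. In the length test, these alternatives were counted over the members only. Whether the members named there exceed the share over all regions is therefore not known. Leaving out resistant tumour 27, alone or with hits inside against outside the gene, and using the RefSeq spans were chosen after seeing the data. No paired analysis was possible because, by the numbers in the library titles, no mouse gave tumours to both groups. Few hits per tumour limit what can be seen: a gene hit in about 10% of tumours has a wide interval, such as 3.26 to 21.4% for Cdh12 in 51 resistant tumours.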

Other observations

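Several members other than Cdh12 held more hits in a single tumour than its number of hits and the region length give. Resistant tumour 10 had 7 Nrxn3 hits where 1.96 were expected, resistant tumour 11 had 6 Lrp1b hits where 1.88 were expected, untreated tumour 2 had 6 Cntnap2 hits where 1.41 were expected and untreated tumour 21 had 6 Macrod2 hits where 1.73 were expected. These tumours were picked for their counts after the values were seen, and no test was made. In resistant tumour 38 the other 4 Ntm hits had 16 to 332 reads, against 37571 at the most-read site, and lay 26 to 612 kb from it.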
